A study of Bos taurus with 9 samples.

Results

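Of the 2523 bins of 1 Mb into which chromosomes 1 to 29 of the bovine genome (UMD3.1.1) were cut, 784 (31.1%) held at most 4 peaks of acetylated lysine 27 of histone H3 (H3K27ac) in the control and butyrate lists together. These H3K27ac-poor bins spanned 780.5 Mb of 2509 Mb, and each chromosome was cut from position 1 up to the last peak end of any list, with a peak assigned to the bin of its midpoint. The peaks came from chromatin immunoprecipitation followed by sequencing (ChIP-seq) on rumen tissue of Holstein cattle, the first stomach chamber, taken before (control) and after 24 h of butyrate treatment. Butyrate was given by direct infusion. The tissue label reads rumen, and the breed is spelled Hostein in the labels. Antibodies against H3K27ac, acetylated lysine 9 of histone H3 (H3K9ac), RNA polymerase II (RNA pol II) and lysine 9 trimethylation of H3 (H3K9me3) gave 1 library per antibody and condition, and all lists were called against the same input library. The number and age of the animals are not given in the sources used here. The study writes of tissue before and after treatment and of rumen biopsies. It does not state whether control and butyrate tissue came from the same animals. The lists hold positions only, with no gene names, so the tissue label could not be checked against marker genes.

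H3K27ac and H3K9ac are laid down at active promoters and enhancers, and RNA pol II is the enzyme that transcribes protein-coding genes. H3K9me3 is the mark of constitutive heterochromatin and is known for repeats, pericentromeric sequence and silenced gene families. Butyrate, a short-chain fatty acid made by rumen microbes, blocks histone deacetylases, which take acetyl groups off histone tails. Large parts of mammalian chromosomes are poor in genes and carry few marks of either kind, and are often called quiescent.

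The bins were chosen by H3K27ac, so the H3K27ac values below are a description of the choice. Peaks per bin ranged from 0 to 244 with a median of 14, and the distribution had a large class at 0. As many as 493 bins held no H3K27ac peak in either condition, against 86 bins with 1, 71 with 2, 59 with 3 and 75 with 4. Just outside the limit, 52 bins held 5 peaks and 60 held 6. The 784 bins together held 705 of 69726 autosomal H3K27ac peaks (1.01%), 379 in control and 326 after butyrate. The median over all other bins was 27 peaks. Bins just inside and just outside the limit had densities of similar size in the other antibodies, on few peaks and without intervals. At 4 H3K27ac peaks there were 0.459 control and 0.729 butyrate H3K9me3 peaks per Mb, and at 5 there were 0.411 and 0.548. Butyrate H3K9me3 also varied inside the limit, with 0.4355 at 3. RNA pol II had 0.0945 and 0.243 at 4 against 0.0783 and 0.196 at 5. H3K9ac had 0.311 and 0.297 at 4 against 0.333 and 0.2545 at 5.

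**Figure D1:**
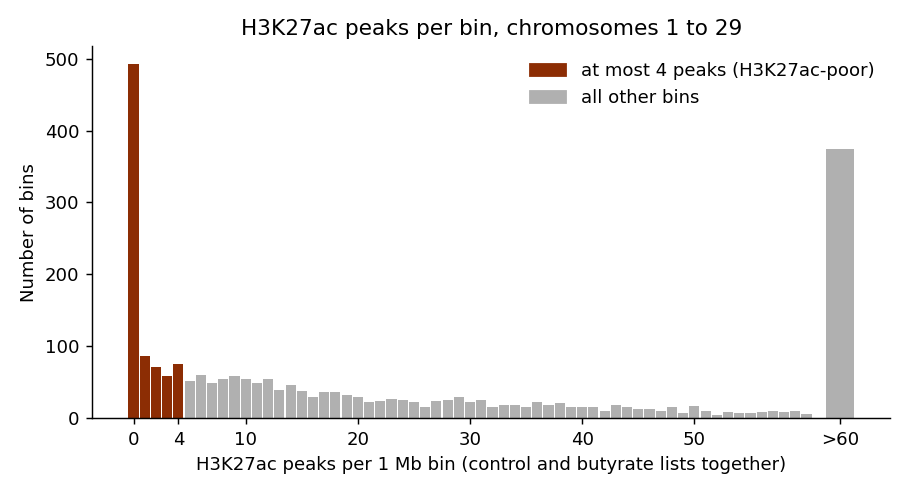
Number of 1 Mb bins of chromosomes 1 to 29 (y axis) by H3K27ac peaks of both conditions together (x axis), with bins above 60 peaks pooled in the last bar. The 493 bins without a peak stand far above the 86 bins with 1 peak, and the dark bars up to 4 peaks make up the 784 H3K27ac-poor bins.

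H3K27ac-poor bins were found on all 29 chromosomes but unevenly. Chromosome 12 had the highest share, 44 of 92 bins (47.8%), followed by chromosome 6 with 53 of 120 (44.2%) and chromosome 4 with 49 of 121 (40.5%). The lowest shares were on chromosome 19 with 8 of 65 (12.3%), chromosome 13 with 12 of 84 (14.3%) and chromosome 25 with 7 of 43 (16.3%). The median of the chromosomes was 31.0%. Cattle autosomes are acrocentric, with the centromere close to the first position. Among the first 5 bins of each chromosome 68 of 145 (46.9%) were H3K27ac-poor, against 25 of 145 (17.2%) among the last 5 and 691 of 2233 (30.9%) between them. The last 5 include the incomplete last bin of each chromosome, which meets the limit more easily the shorter it is. Of these 29 incomplete bins 7 were H3K27ac-poor.

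**Figure D2:**
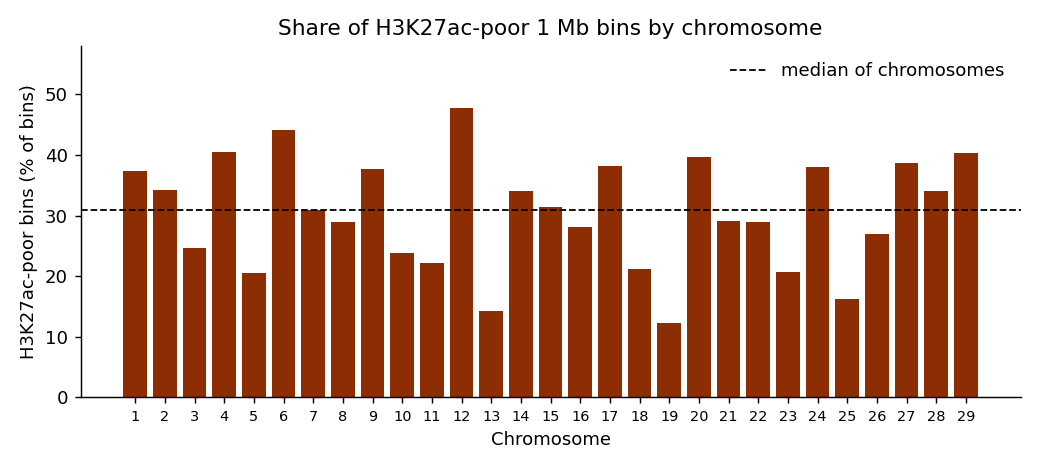
Share of 1 Mb bins that were H3K27ac-poor (y axis, percent) on each chromosome (x axis), with the median of the chromosomes as a dashed line. Chromosome 12 reaches 47.8% and chromosome 19 lies at 12.3%.

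The bins lay in 363 runs of adjacent bins, of which 197 were single bins and 41 held 5 bins or more. Runs of 5 or more took 34.1% of the bins. The longest was 14 Mb on chromosome 20, from 42000001 to 56000000, where 13 of the 14 bins had no H3K27ac peak. Over these 14 Mb the 6 lists of the other antibodies held 3 peaks, 1 H3K9ac peak in control and 2 H3K9me3 peaks after butyrate. The next was the first 11 Mb of chromosome 12, from 1 to 11000000, with 2 H3K9me3 peaks in each condition and no peak of the other 2 antibodies. Runs of 10 bins followed. That on chromosome 6, from 75000001 to 85000000, held 2 control H3K9me3 peaks and no other peak of the 3 antibodies. That on chromosome 12, from 37000001 to 47000000, held 1 H3K9ac peak in each condition and 1 control RNA pol II peak. That on chromosome 17, from 19000001 to 29000000, had no H3K27ac peak at all, and 1 control RNA pol II peak was the only peak of the 3 antibodies. The longest runs were thus nearly free of called peaks of every antibody, H3K9me3 included. Absence of a called peak need not mean absence of the mark. The study found more peaks in its cell lines than in rumen tissue and names sensitivity in tissue as a possible reason.

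All 3 antibodies that the choice did not use had fewer peaks per Mb in H3K27ac-poor bins than in all other bins, and they differed widely in how much fewer. H3K9me3 was the least depleted, RNA pol II came next and H3K9ac was the most depleted, in both conditions. The share of peaks on H3K27ac, the antibody of the choice, rose in the same order. It was 4.3%, 35.2% and 86.1% in control and 2.69%, 32.1% and 83.2% after butyrate. What part of the order comes from the choice was not tested. The intervals given are exact 95% intervals for counting error. They treat peaks as independent and do not cover the spread between animals or libraries. No test was run, since bins of 1 library are not replicates.

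H3K9me3 had 225 control peaks in H3K27ac-poor bins, or 0.288 per Mb (0.252 to 0.329), against 1311 peaks or 0.759 per Mb (0.718 to 0.801) in all other bins. The ratio of the densities was 0.380 (0.328 to 0.438). After butyrate it had 304 peaks, or 0.390 per Mb (0.347 to 0.436), against 1406 or 0.814 per Mb (0.772 to 0.857), a ratio of 0.479 (0.422 to 0.542). Although the bins made up 31.1% of the span, their part of the autosomal H3K9me3 list was 14.6% (13.0 to 16.5) in control. After butyrate it was 17.8% (16.0 to 19.7). A control H3K9me3 peak was present in 149 H3K27ac-poor bins (19.01%), where the share over all bins was 32.3%. After butyrate it was 161 bins (20.5%), with 32.1% over all bins. In either condition 222 bins (28.3%) had one, where the share over all bins was 46.7%. At the scale of 1 Mb, bins poor in H3K27ac thus had fewer H3K9me3 peaks too, not more.

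RNA pol II had 42 control peaks in these bins, 0.0538 per Mb (0.0388 to 0.0727), against 631 or 0.365 per Mb (0.337 to 0.395) elsewhere. After butyrate there were 79 peaks, 0.101 per Mb (0.0801 to 0.126), against 1163 or 0.673 per Mb (0.635 to 0.713). This gave a ratio of 0.147 (0.105 to 0.202) for the control list and of 0.150 (0.118 to 0.189) for the butyrate list. Control RNA pol II peaks were found in 38 of the bins (4.85%), where 19.4% of all bins had one, and butyrate peaks in 63 (8.04%), where 30.9% of all bins had one. Taking either condition, 86 bins (10.97%) had one, where 38.8% of all bins did.

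H3K9ac had 43 control and 46 butyrate peaks in the bins, 0.0551 per Mb (0.0399 to 0.0742) and 0.0589 per Mb (0.0432 to 0.0786). All other bins had 2.33 and 2.44 per Mb, so the ratios were 0.0236 (0.0171 to 0.0319) and 0.0242 (0.0177 to 0.0323). Control peaks lay in 41 bins and butyrate peaks in 44, which is 5.23% and 5.61% where 50.9% and 50.5% of all bins had one. Taking either condition it was 68 bins (8.67%), where 59.8% of all bins had one. This low value follows closely from the choice, because 86.1% of control and 83.2% of butyrate H3K9ac peaks of chromosomes 1 to 29 overlapped an H3K27ac peak of their condition.

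**Figure D3:**
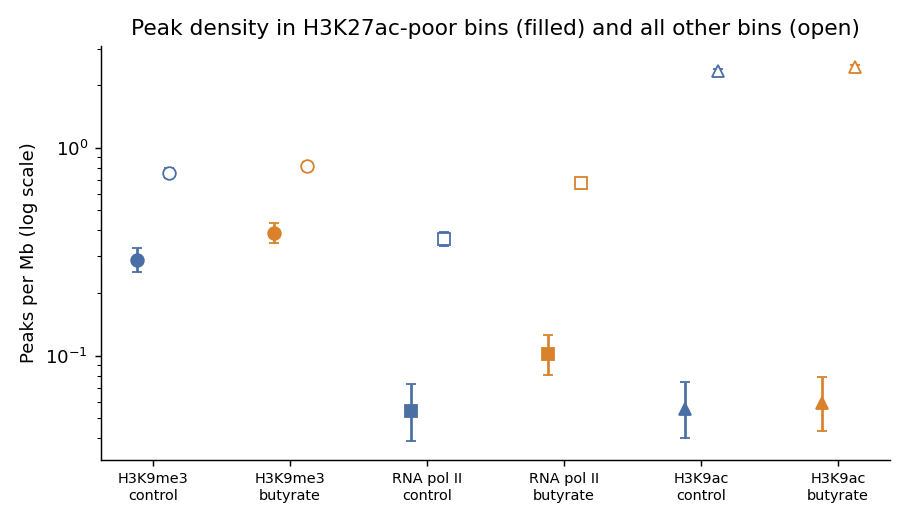
Peaks per Mb on a log scale (y axis) for each antibody and condition (x axis) in H3K27ac-poor bins (filled) and in all other bins (open), with exact 95% counting intervals as bars. The gap between filled and open symbols is smallest for H3K9me3 (0.288 against 0.759 in control) and largest for H3K9ac (0.0551 against 2.33).

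The makeup of the peaks differed accordingly. In control there were 5.23 H3K9me3 peaks for each H3K9ac peak in H3K27ac-poor bins and 0.325 in all other bins, and after butyrate 6.61 and 0.334. H3K9me3 also outnumbered RNA pol II more, by 5.36 to 1 against 2.08 to 1 in control and by 3.85 to 1 against 1.21 to 1 after butyrate. Most H3K27ac-poor bins had none of the 3. No peak of the 3 antibodies in either condition was found in 489 of them (62.4%), where the share over all bins was 23.8%, and 364 bins held no peak of any of the 8 lists.

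Divided by their H3K27ac peaks, the bins showed different patterns for the 3 antibodies. In the 493 bins with no H3K27ac peak H3K9me3 had 0.185 control peaks per Mb (0.149 to 0.227) and 0.270 butyrate peaks (0.226 to 0.320). In the 291 bins with 1 to 4 it had 0.466 (0.390 to 0.552) and 0.594 (0.509 to 0.690). Bins with 5 to 9 had 0.913 and 0.920, and from there on the values stayed between 0.638 and 0.958 up to bins with 80 or more H3K27ac peaks. The share of bins with a control H3K9me3 peak went on from 13.8% and 27.8% in these classes to 32.0% of bins with 5 to 9 H3K27ac peaks and 41.9% of bins with 80 or more, and after butyrate from 17.04% and 26.5% to 34.5% and 41.0%. In the class of 5 to 9 the 249 control peaks lay in 88 of 275 bins, so that its density rested on bins with many peaks. H3K9ac went from 0 and 0.00203 per Mb in bins without H3K27ac to 7.30 and 8.15 in bins with 80 or more. RNA pol II went from 0.0284 and 0.0548 to 0.774 and 1.49, and bins with 5 to 9 H3K27ac peaks had more (0.297 and 0.433) than bins with 10 to 19 (0.193 and 0.345). By share of bins with a peak this was not so, at 10.9% and 22.9% against 16.9% and 26.4%, since the 81 control peaks of the former class lay in 30 bins. The 493 bins without H3K27ac spanned 492.8 Mb and held 1 H3K9ac peak, on chromosome 3 from 72706879 to 72707095, called after butyrate only and lying under an H3K9me3 peak.

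**Figure D4:**
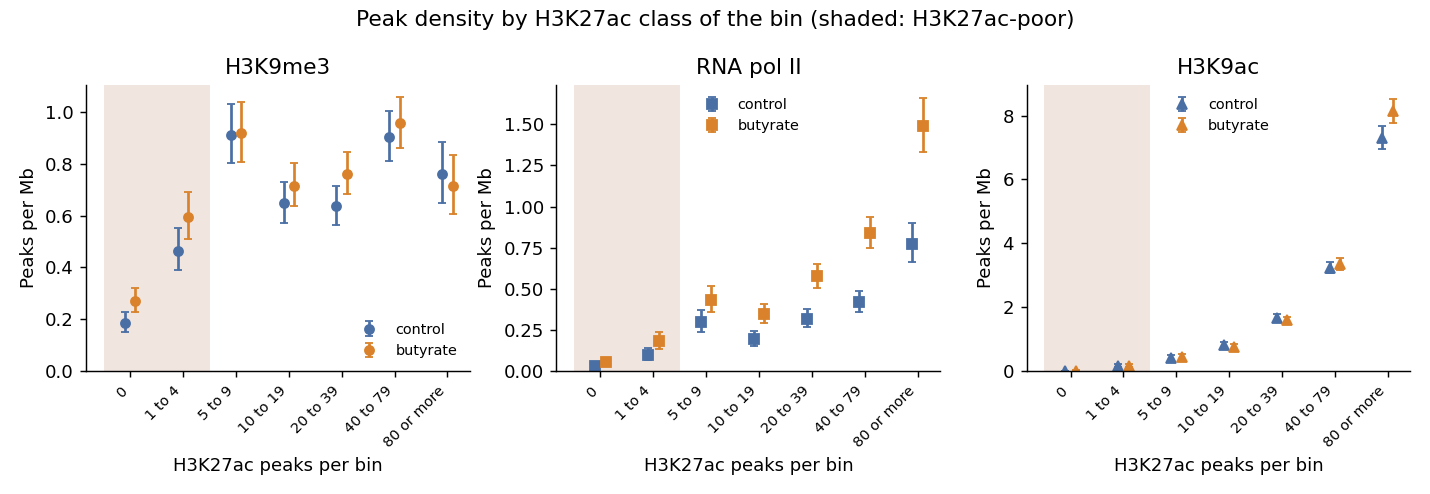
Peaks per Mb (y axis, separate scales) for H3K9me3, RNA pol II and H3K9ac in bins grouped by H3K27ac peaks of both conditions (x axis), with exact 95% counting intervals. The shaded classes are the H3K27ac-poor bins. H3K9me3 is low in these classes (0.185 and 0.466 in control) and lies between 0.638 and 0.958 in the other classes, while H3K9ac climbs throughout.

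Within the H3K27ac-poor bins, density also differed with the neighbours. In the 521 bins beside a richer bin H3K9me3 had 0.344 control peaks per Mb (0.295 to 0.398) and 0.468 butyrate peaks (0.411 to 0.530), and in the 263 bins with poor bins or a chromosome end on each side 0.179 (0.131 to 0.238) and 0.236 (0.181 to 0.302). For RNA pol II these were 0.0657 and 0.129 beside a richer bin and 0.0304 and 0.0457 otherwise. In runs of 5 or more bins RNA pol II had 9 control and 7 butyrate peaks over 267.0 Mb. In single bins it had 15 and 39 over 193.6 Mb. Peaks were thus sparser in H3K27ac-poor bins without a richer neighbour than in those beside one, for H3K9me3 beyond the counting intervals in both conditions. The bins beside a richer bin include all 197 single bins, so they are not only the borders of long stretches. The neighbours were not separated from the number of H3K27ac peaks in the bin itself.

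Control and butyrate were then compared inside the bins. H3K9me3 had 304 peaks after butyrate and 225 in control, a ratio of 1.35 (1.13 to 1.61, log2 ratio 0.43), while all other bins had 1406 and 1311, a ratio of 1.07 (0.994 to 1.16). Of the difference between the lists on chromosomes 1 to 29, 79 peaks were in H3K27ac-poor bins and 95 in the others. The ratio of the ratios was 1.26 (1.04 to 1.53). It was 1.47 (1.17 to 1.84) with peaks wider than 200 bp only, but its interval included 1 with 500 kb bins, at 1.12 (0.952 to 1.32), with the bins shifted by 500 kb, at 1.15 (0.937 to 1.41), without the 4 bins richest in H3K9me3, at 1.17 (0.958 to 1.44), and without chromosome 6, at 1.21 (0.995 to 1.48). The control H3K9me3 library was run on lane 3 and the butyrate library on lane 4, so lane and condition cannot be told apart.

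Bin by bin, 100 H3K27ac-poor bins (12.8%) had more H3K9me3 peaks after butyrate and 75 (9.57%) had fewer, where the shares over all bins were 19.8% and 19.3%. An H3K9me3 peak was present in both conditions in 88 of the 784 bins, in control only in 61 and after butyrate only in 73. In the 1739 other bins these numbers were 361, 306 and 288. Bins with a peak in either condition made up 28.3% of the former and 54.9% of the latter. By chromosome, the sum over H3K27ac-poor bins was higher after butyrate on 21 chromosomes, lower on 6 and equal on 2. The same count was not made for all other bins, so whether this split is particular to H3K27ac-poor bins was not tested. The whole autosomal H3K9me3 list was also larger after butyrate, with 1710 peaks against 1536 in control. Chromosomes of 1 library are not replicates. The largest part of the excess in H3K27ac-poor bins was in bins with many peaks. The 16 bins with 6 or more H3K9me3 peaks in both lists together held 60 in control and 101 after butyrate, the 40 bins with 3 to 5 held 65 and 84, and the 166 bins with 1 or 2 held 100 and 119. Of 222 bins with any H3K9me3 peak, 41 held 50% of the 529 peaks. Several peaks in a bin were not particular to this part. Bins with a peak held 1.51 in control and 1.89 after butyrate on average, against 1.97 and 2.17 in all other bins.

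RNA pol II, whose libraries were both on lane 3, had 79 peaks after butyrate and 42 in control, a ratio of 1.88 (1.28 to 2.80, log2 ratio 0.91). All other bins had a ratio of 1.84 (1.67 to 2.03), and the ratio of the ratios was 1.02 (0.684 to 1.54). More RNA pol II peaks after butyrate were found in 55 H3K27ac-poor bins (7.02%) and fewer in 24 (3.06%), where 23.6% and 9.39% of all bins had more and fewer. H3K9ac had a ratio of 1.07 (0.690 to 1.66) in H3K27ac-poor bins and 1.04 (0.9995 to 1.09) in the others, with more peaks in 27 H3K27ac-poor bins (3.44%) and fewer in 25 (3.19%), where 24.5% and 23% of all bins had more and fewer. Its control library was run on lane 1 and its butyrate library on lane 3. Library depth was not corrected for in any of these comparisons of conditions.

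**Figure D5:**
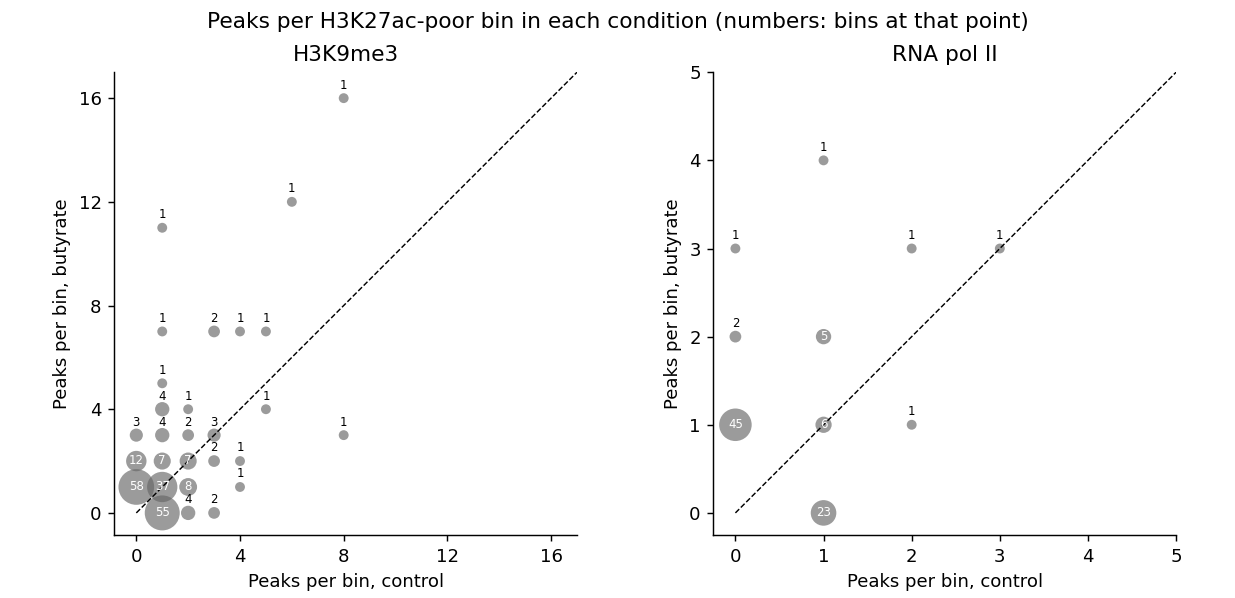
Peaks per H3K27ac-poor bin in control (x axis) and after butyrate (y axis) for H3K9me3 and RNA pol II, with the number of bins at each point beside or inside it and bins without a peak left out. The dashed line marks equal numbers. The 4 bins richest in H3K9me3 lie above it, up to 8 control and 16 butyrate peaks, and 1 bin with 8 control and 3 butyrate peaks lies well below, while most bins hold 1 peak in 1 condition.

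The 4 bins richest in H3K9me3 differed in how their peaks were laid out. The first, on chromosome 18 from 60000001 to 61000000, had 8 control and 16 butyrate peaks, spread over 938.6 kb and 945.4 kb, of which 3 in each list overlapped a peak of the other. It held 2 H3K27ac peaks in each condition. The second, on chromosome 28 from 2000001 to 3000000, had 6 control and 12 butyrate peaks within 183.8 kb and 284.4 kb, and 5 of the control peaks were found again. Peaks in this bin were at least 189.2 kb from any H3K27ac peak. The third, on chromosome 7 from 105000001 to 106000000, had 1 control peak and 11 butyrate peaks, the latter within 94.7 kb, and it was the bin with the largest difference. The fourth, on chromosome 22 from 18000001 to 19000000, had 5 control peaks within 5.86 kb and 7 butyrate peaks within 341.5 kb, with 4 found in both. Dense and widely spread clusters were both present, and all 4 bins had more peaks after butyrate.

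H3K9me3 peaks of H3K27ac-poor bins lay far from H3K27ac, as the choice requires, with a median distance of 365.8 kb in control and 369.6 kb after butyrate, against 31.0 and 43.0 kb in all other bins. Their widths were similar to those elsewhere, with medians of 222 and 232.5 bp against 230 and 232 bp. In control 32.9% (27.1 to 39.3) of the 225 peaks were found in the butyrate list, where the share over all control peaks of chromosomes 1 to 29 was 23.2% and in all other bins 21.5% (19.4 to 23.8). After butyrate 24.3% (19.9 to 29.5) of the 304 peaks were found in control, against 20.4% over all and 19.6% (17.6 to 21.7) in all other bins. The higher share in control was seen in each width class, 14.7% of 68 peaks against 7.37% at 200 bp, 33.0% of 112 against 19.5% for wider peaks up to 300 bp, and 27 of 45 peaks against 42.9% above 300 bp. Intervals of the first and last of these pairs overlapped. After butyrate the order was not the same, with 1 of 65 peaks against 4.61% at 200 bp, 26.3% of 160 against 17.4% up to 300 bp and 39.2% of 79 against 40.7% above it. Few of these H3K9me3 peaks lay under other antibodies. RNA pol II overlapped 6.67% in control and 6.91% after butyrate, where the shares over all H3K9me3 peaks were 7.23% and 7.72%. H3K27ac overlapped 2 peaks in each condition (0.889% and 0.658%), where the shares over all were 4.3% and 2.69%, which the choice of bins limits.

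The widest H3K9me3 peaks shared by both conditions were on chromosome 1 from 91215770 to 91216430 (661 bp in control, 887 bp after butyrate), on chromosome 4 from 87135782 to 87136358 (577 and 617 bp) and on chromosome 13 from 14640449 to 14640978 (530 and 461 bp). The peak on chromosome 4 was without any other antibody. Those on chromosomes 1 and 13 also lay under RNA pol II peaks of both conditions, under an H3K9ac peak after butyrate, and under H3K27ac of both conditions (chromosome 1) or of butyrate (chromosome 13). The widest in control only was on chromosome 23 from 23519608 to 23520117 (510 bp), and the widest after butyrate only lay at the start of chromosome 9, from 3922 to 4609 (688 bp). Neither overlapped another antibody.

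RNA pol II in H3K27ac-poor bins was seldom at acetylated sites. Of the 42 control peaks 2 overlapped H3K27ac and none H3K9ac, and of the 79 butyrate peaks 2 and 4, while over all peaks of chromosomes 1 to 29 the shares overlapping H3K27ac were 35.2% and 32.1%. In all other bins 14.3% of control and 12.6% of butyrate RNA pol II peaks overlapped H3K9ac. Overlap with H3K27ac, and through it with H3K9ac, was limited by the choice of bins. Overlap with H3K9me3 was not chosen on directly, and with the bins as cut here it was more frequent than elsewhere. In control it covered 15 of 42 RNA pol II peaks (35.7%, 23.0 to 50.8) and after butyrate 21 of 79 (26.6%, 18.1 to 37.2), where the shares over all peaks were 16% and 10.8% and in all other bins 14.7% (12.2 to 17.7) and 9.72% (8.14 to 11.5). No other antibody of the condition was present at 61.9% (46.8 to 75.0) of control and 73.4% (62.8 to 81.9) of butyrate RNA pol II peaks, against 52.1% and 57.95% in all other bins. Both lists were called against the same input, and the part of the input in these overlaps was not tested. Few RNA pol II peaks of these bins lay on H3K27ac, against 37.2% of control and 34.1% of butyrate peaks in all other bins. Leaving such peaks out can by itself raise the other shares, and its part was not tested.

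Few RNA pol II peaks were shared by both conditions. In control 9 of 42 (21.4%, 11.7 to 35.9) were found after butyrate, where the share over all was 15.3%, and after butyrate 9 of 79 (11.4%, 6.11 to 20.3) were found in control, where it was 8.29%. Of the 9 shared peaks 7 lay under an H3K9me3 peak of either condition and 5 under one of both conditions. Among RNA pol II peaks of a single condition H3K9me3 of either condition was found at 10 of 33 in control and 22 of 70 after butyrate. The same order was seen in all other bins, where H3K9me3 of either condition lay at 55.3% of the 94 shared control peaks and 58.5% of the 94 shared butyrate peaks, against 11.9% and 8.23% of those in a single condition. Width was not held equal in this comparison. Of the control peaks in H3K27ac-poor bins, 4 of 5 above 300 bp but 0 of 17 at 200 bp were found after butyrate. The 3 widest shared peaks were on chromosome 1 from 91215947 to 91216414 (468 bp, 698 bp after butyrate), chromosome 9 from 49478333 to 49478751 (419 and 391 bp) and chromosome 13 from 14640572 to 14640984 (413 and 457 bp), all 3 under H3K9me3 of both conditions. The widest RNA pol II peak of control only was on chromosome 1 from 61704178 to 61704499 (322 bp), 1434 kb from the nearest H3K27ac peak, and the widest of butyrate only on chromosome 5 from 18741144 to 18741642 (499 bp). Neither lay under another antibody.

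The bins richest in RNA pol II were on chromosome 1 from 91000001 to 92000000, with 3 peaks in each condition, on chromosome 5 from 18000001 to 19000000, with 1 and 4, on chromosome 22 from 18000001 to 19000000, with 2 and 3, and on chromosome 1 from 61000001 to 62000000, with 1 and 2. The last was the first by position of 7 bins with 3 RNA pol II peaks, whose H3K9me3 peaks ranged from none in either condition to 6 and 12. The bin with none was the incomplete last bin of chromosome 19, which is only 41758 bp long. The 4 named bins held 5 and 4, 2 and 0, 5 and 7, and 3 and 3 H3K9me3 peaks, in the same order. A bin with RNA pol II held H3K9me3 of the same condition in 18 of 38 cases (47.4%) in control and 30 of 63 (47.6%) after butyrate, whereas 19.01% and 20.5% of all H3K27ac-poor bins held it. In all other bins these shares were 49.6% and 44.3%, against 38.4% and 37.3%. Bins where an RNA pol II peak overlaps an H3K9me3 peak are counted here too. The bin shares are thus not separate from the overlaps given above. The number of H3K27ac peaks in the bin, along which both antibodies differed, was not held equal.

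H3K9ac peaks of H3K27ac-poor bins mostly lay on the few H3K27ac peaks that remained, 38 of 43 in control (88.4%, 75.5 to 94.9) and 37 of 46 after butyrate (80.4%, 66.8 to 89.4). The share found in the other condition was 27.9% (16.7 to 42.7) in control and 26.1% (15.6 to 40.3) after butyrate, against 32.7% and 31.2% over all. The bins with most H3K9ac peaks were on chromosome 16 from 35000001 to 36000000, with 2 in each condition, and on chromosome 4 from 82000001 to 83000000, with 2 and 1. Both held 2 H3K27ac peaks in each condition and neither H3K9me3 nor RNA pol II. The bin on chromosome 1 from 91000001 to 92000000 had 2 butyrate peaks and the bin on chromosome 2 from 30000001 to 31000000 had 1 in each condition, and these were the first by position of 16 bins with 2 H3K9ac peaks. The widest H3K9ac peak of control only was on chromosome 6 from 13094861 to 13095201 (341 bp) and the widest of butyrate only on chromosome 5 from 72770062 to 72770535 (474 bp), both under H3K27ac of both conditions.

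A small group of H3K9ac peaks lay under H3K9me3. After butyrate these were 6 of 46 (13.0%, 6.12 to 25.7), where the share over all butyrate H3K9ac peaks was 1.13% and in all other bins 0.998% (0.739 to 1.35). In control it was 1 of 43 (2.33%, 0.412 to 12.1), where the share over all was 0.908%. These 7 peaks were chosen for naming after their values had been seen. The butyrate peaks were on chromosome 1 from 91174860 to 91175059 and from 91215790 to 91216147, on chromosome 3 from 72706879 to 72707095, on chromosome 9 from 49478333 to 49478667, on chromosome 13 from 14640467 to 14640875 and on chromosome 22 from 18561639 to 18561880. The control peak was on chromosome 10 from 23934228 to 23934456. All butyrate peaks but that on chromosome 3 also lay under RNA pol II of at least 1 condition and under H3K9me3 of both conditions, and none of the 6 overlapped a control H3K9ac peak. RNA pol II of the same condition, butyrate, lay at 4 of these 5 sites, and at the first site on chromosome 1 it was called in control only. The second site on chromosome 1 and those on chromosomes 9, 13 and 22 were also sites of RNA pol II peaks shared by both conditions. They are thus not observations separate from those above. All lists shared 1 input library.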

How the data were processed

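ChIP-seq peak lists of 8 libraries were analysed, with 1 library per antibody and condition. An input library completed the 9 libraries. Per the methods of the study, reads were aligned with BWA to UMD3.1.1, uniquely aligned reads with few mismatches were kept, and peaks were called with MACS2 at default settings against the input. The submitters' processing notes also name Trim Galore 0.4.1. The authors deposited chromosome, start and end of each peak, with no score, fold, p-value or read number. The study also lists a mapping summary of its data sets. It was not used here, and depth was not corrected for. Positions were read as including both ends, which gives a smallest width of 200 bp.

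From these, chromosomes 1 to 29 were cut into bins of 1 Mb, peaks were assigned by midpoint, and bins with at most 4 H3K27ac peaks in both lists together were kept. Densities were compared as ratios with exact 95% intervals (Clopper-Pearson on the split of counts), and the ratio of ratios as a conditional odds ratio. Shares have Wilson 95% intervals, and overlap means at least 1 bp. Python 3.11.15 with scipy 1.17.1 and pandas 2.3.3 was used, and counting and overlaps were tested on simulated data and against bedtools 2.31.1. With no replicates, no test was run. The regions named are the 5 longest runs, the 4 bins with most peaks per antibody (ties by position), the 3 widest shared H3K9me3 and RNA pol II peaks, and the widest peak of each antibody in each single condition. The bins and these lists were chosen with earlier results of these data known. Gene positions and sequences of UMD3.1.1 were not used here, since the gene table at hand is of another assembly.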

Additional observations from a re-analysis of the deposited data

How the results depend on the processing

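No paired analysis was possible because a single library stood for each antibody and condition. The bins were chosen anew with at most 2 or at most 8 H3K27ac peaks, with 500 kb bins of at most 2 peaks, with bins shifted by 500 kb and without incomplete last bins. Peaks wider than 200 bp, which stood in for a stricter score, and an overlap of 50% of the shorter peak were also tried. Leaving out 1 chromosome at a time or the 4 bins richest in H3K9me3 was an alternative added once the data had been seen, as was recomputing the ratio of ratios. No density ratio changed direction. Of 131 alternative values 18 left the counting interval of the reported one, and their causes were not tested. Log2 density ratios moved with at most 2 peaks to -7.15 (control) and -6.95 (butyrate) for H3K9ac, and with 500 kb bins to -6.85 and -6.54. With at most 8 peaks H3K9ac was at -4.35 and -4.42, RNA pol II at -2.28 and -2.32, and H3K9me3 at -1.06 and -0.83. Control H3K9me3 was at -1.11 with 500 kb bins. Butyrate H3K9me3 went to -1.26 with shifted bins and to -1.29 without its 4 richest bins. The share of H3K9ac found in the other condition went to 10% and 8.33% with at most 2 peaks and to 16.7% and 12.9% with 500 kb bins, and that of control H3K9me3 to 40.8% with peaks wider than 200 bp. The butyrate to control ratios of peak numbers stayed within their intervals. A bin can be poor in peaks where reads cannot be aligned uniquely or the assembly has gaps, which was not tested.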
